A study of Homo sapiens with 4 samples.

Results

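Leukocyte integrin subunits were examined in Reh-6-MPR cells as the 10 genes ITGB2, ITGAM, ITGAL, ITGAX, ITGB1, ITGB7, ITGA4, ITGA5, ITGA6 and ITGAE, chosen by symbol from the 29833 genes in the table. All 10 were present once, and their choice was made with the expression values of these same libraries in view, so the values are a description and no difference among them was tested. Reh is an established human B-cell precursor acute lymphoblastic leukemia line, and Reh-6-MPR is a derivative selected by growth in 6-mercaptopurine (6-MP), a thiopurine drug. Only this resistant line was profiled, and the parental line was not analysed here. The 4 libraries are 1 each of cells kept for 48 h with PBS (vehicle), 4 mM histidine, 1.0 μg/mL 6-MP, or the combined treatment with both agents at those doses. Expression was given as FPKM, reads scaled to gene length and library total, so levels of different genes can be set side by side on the lengths used by the authors. Those lengths, as recovered from the values, exceed the merged exon length in GENCODE 29 most for ITGB1 (14561 against 6011 bases), ITGA4 (10654 against 7901) and ITGAL (9864 against 6472), which lowers the FPKM of these genes against the others in all 4 libraries alike. The reads behind each FPKM value were recovered, from totals of 12899122 reads for the combined treatment to 15486376 for histidine. Genes above 0 numbered 25443 in the combined library, the shallowest, and 23635 to 23978 elsewhere. With 1 library per treatment there was no replicate error and no test across treatments, and the 95% intervals given below are exact and cover counting error only.

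Integrins are adhesion receptors built from an α and a β subunit, and a subunit generally reaches the cell surface only once it is paired. On leukocytes the β2 chain (ITGB2, CD18) pairs, among others, with αL (ITGAL), αM (ITGAM) or αX (ITGAX) and binds ICAM proteins, complement fragments or fibrinogen. The β1 chain (ITGB1) pairs with α4 (ITGA4), α5 (ITGA5) or α6 (ITGA6) and binds VCAM-1, fibronectin or laminin, while β7 (ITGB7) pairs with α4 or αE (ITGAE). In lymphoid leukemia, α4β1 is best known for holding blasts to the bone marrow stroma, and αM is a standard marker of myeloid cells.

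The question for each member was how its mRNA under the combined treatment compared with vehicle and with either agent alone. ITGB2 and ITGAM stood far higher with the combined treatment than in each of the other 3 libraries, about 16-fold and 6-fold above vehicle, and ITGAL and ITGB7 were also several-fold higher from much lower levels. ITGB1, ITGA6 and ITGAE were higher by 1.32- to 1.69-fold. ITGA4, the most abundant subunit in every library, and ITGA5 were level or slightly lower. In bulk RNA, a larger share of cells carrying a transcript and more transcript per cell cannot be told apart.

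**Figure D1:**
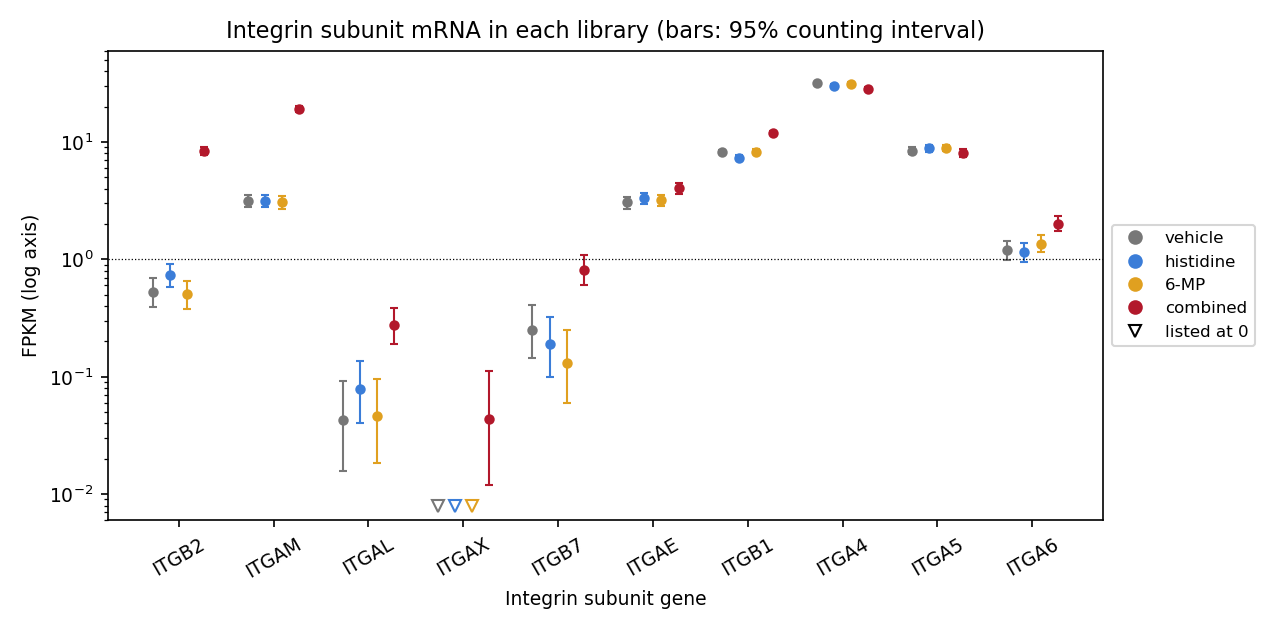
FPKM on a log axis (vertical) of the 10 integrin subunit genes (horizontal) in the vehicle, histidine, 6-MP and combined libraries, 1 point per library with its exact 95% counting interval. Open triangles mark genes listed at 0, and the dotted line is an FPKM of 1. The combined point of ITGB2 lies at 8.42 and that of ITGAM at 19.2, above the 3 other libraries, while the 4 points of ITGA4 lie between 28.6 and 31.7.

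Differences were taken on the log2(FPKM + 1) scale, where a low-level gene shows a smaller difference than its fold, and a gene counted as past the fold when its mean FPKM was at least 1 and the difference was at least 1 in size. Of the 10 members, 7 had a mean FPKM of at least 1, and ITGAL, ITGAX and ITGB7 did not. For the combined treatment against vehicle, 2 of these 7, ITGB2 and ITGAM, were higher past the fold and 0 were lower, where 5.01% of the 12750 genes tested were higher and 1.51% lower, 6.53% in all. ITGB2 passed the filter only through the combined library, its FPKM being below 1 in the other 3. Because the members were chosen from this contrast, nothing is read from the excess. The same 2 genes were past the fold against histidine alone (4.15% of all genes higher and 1.4% lower, 5.55% in all) and against 6-MP alone (4.82% higher and 1.2% lower, 6.02% in all). These 3 comparisons share the combined library. The median log2 difference over the 12750 genes was 0.13 against vehicle, 0.11 against histidine and 0.13 against 6-MP, and smaller differences of the members should be read against these values.

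ITGB2 (ENSG00000160255, chromosome 21 of GRCh38, 44885953 to 44931989, minus strand) encodes the β2 chain shared by all β2 integrins. Its FPKM was 0.529 with vehicle, 0.733 under histidine, 0.503 under 6-MP and 8.42 under both agents, from 52, 78, 53 and 746 reads. The combined library was high and the other 3 were low, with no overlap of their counting intervals (7.83 to 9.05 against at most 0.915). The ratio of reads per library total was 15.9 to vehicle (95% interval 12.0 to 21.5), 11.5 to histidine (9.08 to 14.7) and 16.7 to 6-MP (12.7 to 22.6). On the log2(FPKM + 1) scale the difference from vehicle was 2.62, and ITGB2 ranked 9 among the 12750 genes tested by this difference.

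ITGAM (ENSG00000169896, chromosome 16, 31259967 to 31332892, plus strand) encodes αM, the CD11b chain of the complement receptor on myeloid cells. Its FPKM was 3.14 with vehicle, 3.16 under histidine, 3.06 under 6-MP and 19.2 under both agents, from 256, 278, 267 and 1407 reads. The first 3 values lay within one another's counting intervals, and the combined value lay above them all. The read ratio was 6.10 to vehicle (95% interval 2.42 to 2.81 for its log2 of 2.61), 6.08 to histidine (5.34 to 6.94) and 6.27 to 6-MP (5.50 to 7.17). The log2(FPKM + 1) difference from vehicle was 2.28, and ITGAM ranked 29 among all genes tested.

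The bases before the start of ITGAM are shown because this is the α subunit with the largest difference in FPKM, beside those of ITGAE, which was only slightly higher, and of ITGA5, which was not. They are RefSeq sequences of GRCh38.p14, read 5′ to 3′ in the direction of the gene and ending before the gene start in the deposited table, at chr16:31259725-31259966 (plus strand), chr17:3801189-3801438 (minus) and chr12:54419267-54419516 (minus). Capitals mark GAGGAA, a purine-rich core of the kind that PU.1, an ETS factor of myeloid and B cells, can bind, searched on both strands.
ITGAM: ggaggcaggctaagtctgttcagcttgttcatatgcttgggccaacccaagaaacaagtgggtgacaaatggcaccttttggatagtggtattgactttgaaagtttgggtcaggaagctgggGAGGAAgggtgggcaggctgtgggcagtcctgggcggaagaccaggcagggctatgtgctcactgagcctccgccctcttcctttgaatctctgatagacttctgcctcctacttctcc
ITGAE: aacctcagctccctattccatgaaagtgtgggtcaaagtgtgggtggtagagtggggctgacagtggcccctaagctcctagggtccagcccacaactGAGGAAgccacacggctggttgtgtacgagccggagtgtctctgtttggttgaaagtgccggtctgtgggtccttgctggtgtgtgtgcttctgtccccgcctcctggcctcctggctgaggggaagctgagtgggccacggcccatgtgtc
ITGA5: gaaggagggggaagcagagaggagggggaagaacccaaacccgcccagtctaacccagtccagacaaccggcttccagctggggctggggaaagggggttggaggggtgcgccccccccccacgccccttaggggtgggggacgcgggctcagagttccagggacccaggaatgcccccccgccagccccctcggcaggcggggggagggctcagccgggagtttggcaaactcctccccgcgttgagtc
GAGGAA occurred once in the ITGAM window, once in the ITGAE window and not in the ITGA5 window. Of the 10 members, 7 had a RefSeq promoter, and ITGB2, ITGAL and ITGAX were not matched. GAGGAA lay within 250 bases before a start in 4 of the 9 promoters of these genes, 1 each of ITGAM, ITGAE, ITGB1 and ITGB7, and in 23.6% of the 35116 promoters in the table, so the letters were found both in members that differed several-fold and in members that differed little.

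ITGAL (ENSG00000005844, chromosome 16, 30472658 to 30523567, plus strand) encodes αL, the chain that makes LFA-1 with β2 on lymphocytes. Its FPKM was 0.0425 with vehicle, 0.0786 under histidine, 0.0463 under 6-MP and 0.275 under both agents, from 6, 12, 7 and 35 reads. The level was thus very low in all 4 libraries, and highest in the combined one. Its read ratio was 6.47 to vehicle, with a wide interval of 2.69 to 18.8, and 3.50 to histidine (1.77 to 7.41). ITGAX (ENSG00000140678, chromosome 16, 31355134 to 31382999, plus strand) encodes αX, the CD11c chain of dendritic cells and macrophages, and starts 22.2 kb beyond the end of ITGAM. It was listed at 0 in the vehicle, histidine and 6-MP libraries and at 0.0438 FPKM under both agents. That value is 4 reads if the gene length is 7076 bases, near its annotated 7074, and no fold is given. With that length, a count of 0 allows an FPKM of up to 0.0337 to 0.0364 in the other 3 libraries. The 3 β2 partners among the members therefore lay at very different levels, with ITGAM well above ITGAL and ITGAX in every library.

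ITGB7 (ENSG00000139626, chromosome 12, 53191323 to 53207282, minus strand) encodes β7, the chain of gut-homing integrins. Its FPKM was 0.251 with vehicle, 0.189 under histidine, 0.132 under 6-MP and 0.819 under both agents, from 16, 13, 9 and 47 reads. The combined interval, 0.601 to 1.09, did not overlap that of any other library, and the read ratio to vehicle was 3.26 (1.82 to 6.16). Genes with few reads were generally higher in the combined library. Over the 3480 genes with 20 to 80 reads in the other 3 libraries together, the median ratio of the combined library to those 3 was 1.33. On the same measure ITGAL was at 4.90 (2.85 to 8.54) and ITGB7 at 4.33 (2.76 to 6.82), values reached or passed by 3.07% and 4.22% of these genes. Both members were chosen with these values in view, so the percentages only describe their place and test nothing. ITGAE (ENSG00000083457, chromosome 17, 3714628 to 3801188, minus strand), which encodes the CD103 chain that pairs with β7 and binds E-cadherin, was at an FPKM of 3.06 with vehicle, 3.31 under histidine, 3.20 under 6-MP and 4.04 under both agents. Its combined interval, 3.62 to 4.49, overlapped that of histidine, 2.96 to 3.68. On library totals its combined read ratio was 1.32 to vehicle (1.13 to 1.55) and 1.22 to histidine (1.05 to 1.42). Its log2(FPKM + 1) difference from vehicle was 0.31 against the median of 0.13 over all genes.

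ITGB1 (ENSG00000150093, chromosome 10, 32887273 to 33005792, minus strand), the β1 chain common to α4, α5 and α6, had an FPKM of 8.23 with vehicle, 7.33 under histidine, 8.28 under 6-MP and 11.9 under both agents, from 1716, 1653, 1849 and 2237 reads. The combined value was the highest and the histidine value the lowest. The read ratio to vehicle was 1.45 (1.36 to 1.54) for the combined treatment and 0.891 (0.832 to 0.953) for histidine. ITGA4 (ENSG00000115232, chromosome 2, 181457202 to 181538940, plus strand), the α4 chain, was at an FPKM of 31.7 with vehicle, 30.2 under histidine, 31.6 under 6-MP and 28.6 under both agents, on 3931 to 5158 reads. Its combined level was the lowest of the 4, with a read ratio to vehicle of 0.901 (0.864 to 0.940). ITGA5 (ENSG00000161638, chromosome 12, 54395261 to 54419266, minus strand), the fibronectin-binding α5 chain, had an FPKM of 8.42, 8.82, 8.95 and 8.07 in the same order, and its ratio of 0.959 to vehicle had an interval that included 1 (0.870 to 1.06). On library totals no difference of ITGA5 from vehicle was beyond counting error. This depends on the scaling. Its log2(FPKM + 1) difference from vehicle was -0.05 with the combined treatment, and -0.19 with median-ratio scaling, an alternative described below. Against 6-MP alone its combined read ratio was 0.902 (0.820 to 0.992). ITGA6 (ENSG00000091409, chromosome 2, 172427354 to 172506459, plus strand), the laminin-binding α6 chain, was at an FPKM of 1.19, 1.15, 1.37 and 2.02. Its combined interval, 1.73 to 2.34, did not overlap the others, and its ratio to vehicle was 1.69 (1.33 to 2.16). Among the β1 partners, ITGA6 was thus the only one with a higher combined level beyond counting error, and it was the least abundant of the 3.

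**Figure D2:**
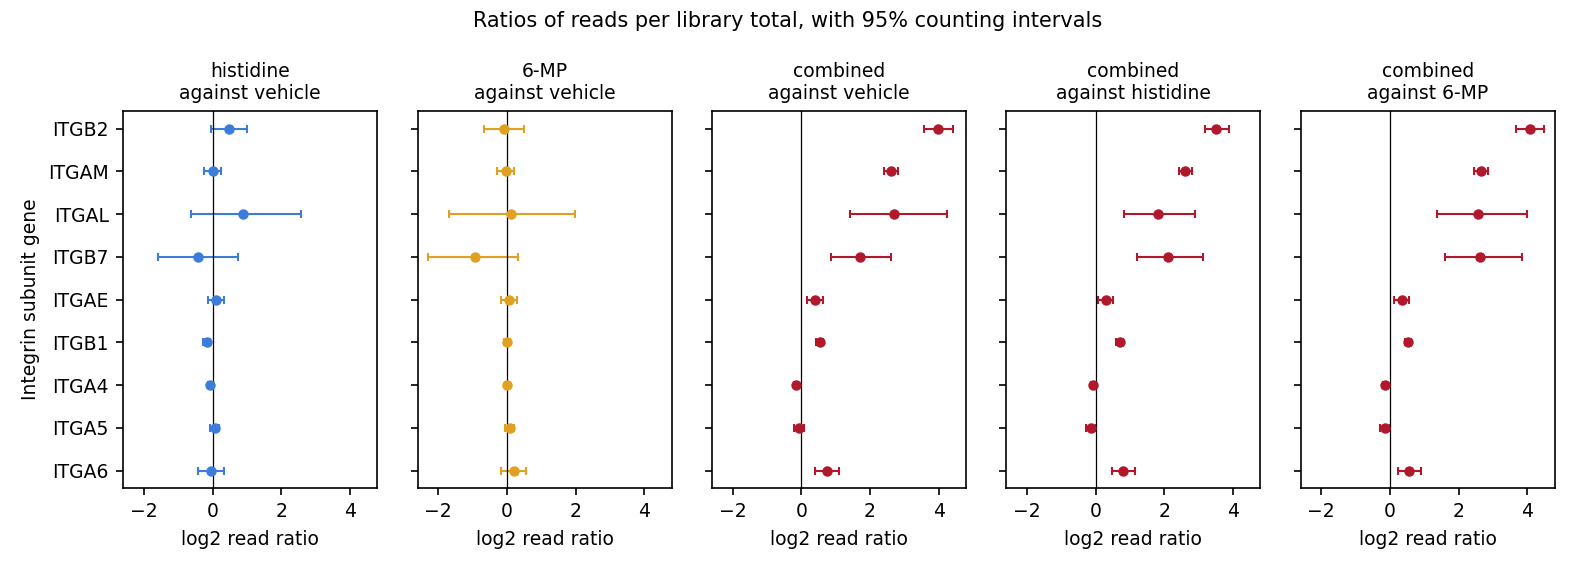
Log2 ratios of reads per library total (horizontal) for 9 integrin subunit genes (vertical) in 5 comparisons, with exact 95% counting intervals. ITGAX is left out because it has no read in 3 libraries. In the 3 panels of the combined treatment, ITGB2 lies at 3.99, 3.52 and 4.07, whereas in the panels of histidine and 6-MP alone the values run from -0.93 for ITGB7 with 6-MP to 0.89 for ITGAL with histidine, both with wide intervals that include 0.

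With either agent alone, no tested member was past the fold. With histidine, 0 of the 7 tested members were past the fold (0.8% of all genes higher and 0.533% lower, 1.33% in all), and with 6-MP again 0 of 7 (0.463% higher and 0.722% lower, 1.18% in all). The counting interval excluded a ratio of 1 for ITGB1 and ITGA4 with histidine, both lower, and for no member with 6-MP. Over all genes tested the interval lay above 1 for 12.9% and below 1 for 8.72% with histidine, and for 9.98% and 7.92% with 6-MP. ITGB2 was 1.39-fold above vehicle with histidine, but its interval (0.964 to 2.01) included 1. The few reads of ITGAL and ITGB7 left their values undetermined, at 1.85-fold for ITGAL with histidine (0.642 to 6.00) and 0.525-fold for ITGB7 with 6-MP (0.204 to 1.26). With the combined treatment against vehicle, the interval lay above 1 for 5 of the 7 tested members and below 1 for 1, ITGA4, where it lay above 1 for 42.7% of all genes tested and below 1 for 20.8%. It also lay above 1 for ITGAL and ITGB7, which were below the filter. Departure from additivity was computed as the log2(FPKM + 1) value of the combined library less the values of the libraries with 1 agent, with the vehicle value added back. It was 2.47 for ITGB2 and 2.31 for ITGAM, and ran from -0.19 for ITGA5 to 0.63 for ITGB1 in the other 5 tested members. Over all genes, 4.85% departed upward and 1.91% downward by at least 1, 6.76% in all, and the median was 0.11.

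On the deposited FPKM, the order of the levels changed below ITGA4, which stayed at the top. In the vehicle library ITGA4 was highest, followed by ITGA5 and ITGB1, whose counting intervals overlapped, then ITGAM and ITGAE, which also overlapped, then ITGA6, and then ITGB2, ITGB7, ITGAL and ITGAX. With the combined treatment ITGAM stood second behind ITGA4 and ahead of ITGB1, and ITGB2 stood next after ITGB1, with an interval that overlapped that of ITGA5. ITGA6, ITGB7, ITGAL and ITGAX were the lowest 4 there. The place of ITGB1 depends on its length. With GENCODE 29 lengths, an alternative added after seeing the data, its level was 19.9 with vehicle, above ITGA5 at 8.20, and 28.9 with the combined treatment, above ITGAM at 19.2. Summed over the 7 α subunits, FPKM was 46.7 to 48.2 in the 3 other libraries and 62.2 with the combined treatment. ITGAM made up 6.35% to 6.75% of that sum in the 3 libraries and 30.8% with the combined treatment, and ITGA4 made up 64.7% to 66.7% and 46.0%. Of the 3 β subunits together, ITGB2 supplied 5.64% to 8.89% and 39.8% on the deposited FPKM, and 2.46% to 3.97% and 22.3% with GENCODE 29 lengths. The FPKM of ITGAL, ITGAM and ITGAX together was 4.41 to 6.18 times that of ITGB2 in the 3 other libraries and 2.32 times with the combined treatment.

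**Figure D3:**
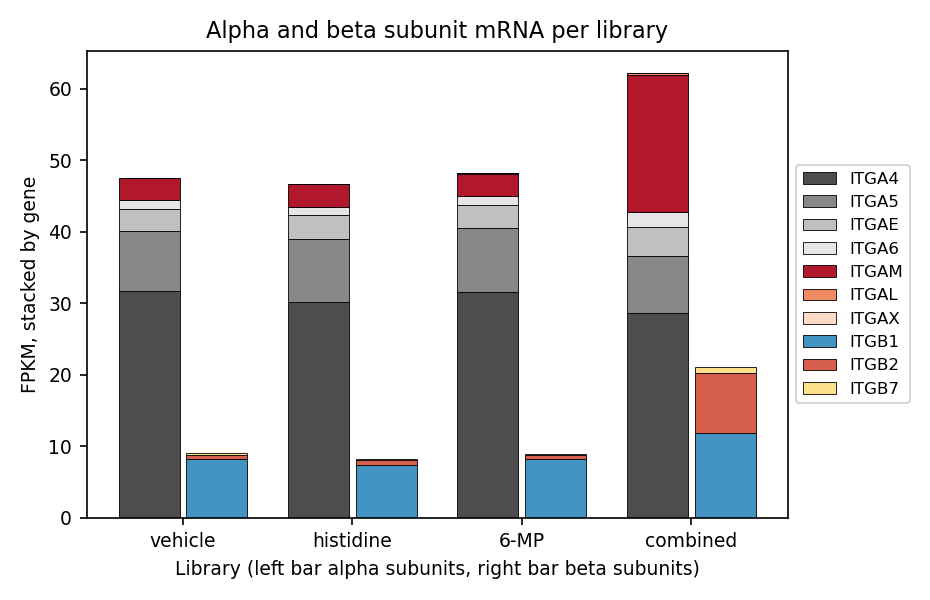
FPKM (vertical) stacked by gene for the 7 α subunits (left bar) and the 3 β subunits (right bar) in each library (horizontal). The ITGAM and ITGB2 segments are larger in the combined library, where the α sum is 62.2 and the β sum 21.1, against β sums of 8.25 to 9.01 in the other libraries.

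The 16 remaining human integrin subunit genes were scarce. Of these, 12 were in the table, and 0 had a mean FPKM of at least 1. The 3 with the highest mean were ITGB4, ITGA10 and ITGA7. ITGB4, the β4 chain of epithelial hemidesmosomes, was at an FPKM of 0.248 with vehicle, 0.334 under histidine, 0.212 under 6-MP and 1.07 under both agents. ITGA10 went no higher than 0.484 and ITGA7 no higher than 0.571, both with the combined treatment.

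The activation list, of genes tied to the control of integrin activation from inside the cell, held none past the fold. Of 22 listed genes 18 were tested, and 0 were past the fold for the combined treatment against vehicle (6.53% of all genes in either direction), with a median of 0.11 beside 0.13 over all genes. APBB1IP, the RIAM adaptor that brings talin to the membrane, was at an FPKM of 139.6 with vehicle, 144 under histidine, 133 under 6-MP and 99.4 under both agents. FERMT3, the kindlin of blood cells needed for β2 activation, was at 61.7, 64.6, 63.6 and 56.9. FLNA, a filamin that competes with talin for β tails, was at 50.1, 48.1, 53.5 and 56.3. Because the list holds such a competitor, its median does not describe activators alone. The combined value was the lowest of the 4 for APBB1IP and FERMT3 and the highest for FLNA, and the read ratio of APBB1IP to vehicle was 0.712 (0.687 to 0.738).

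Among 33 genes of the adhesion complex and its signaling, 27 were tested and 2 were higher past the fold, PARVG and LPXN, with 0 lower and a median of 0.17, where 5.01% of all genes were higher and 1.51% lower. LPXN lay at 1.02, close to the threshold, and the list count was 1 with median-ratio scaling and 0 at a threshold of 1.5. PARVG, the parvin of blood cells, was at an FPKM of 1.44 with vehicle, 1.57 under histidine, 0.960 under 6-MP and 4.62 under both agents. LPXN, a leupaxin of the paxillin family, was at 3.37, 3.35, 2.64 and 7.89. The most abundant genes of the list were RAC2, RAC1 and CRKL. RAC2, the small GTPase of blood cells, was at 63.5 with vehicle and 83.6 with the combined treatment. RAC1 was at 53.6 and 47.4, and CRKL, an adaptor, at 59.1 and 51.3.

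Of 23 ligand genes 7 were tested, and 0 were past the fold for the combined treatment against vehicle (6.53% of all genes in either direction). All 7 were above 0, with a median of 0.52 beside 0.13 over all genes. The share of all genes above 0 was not computed, so nothing is read from that direction. LAMC1, a laminin chain, was at an FPKM of 10.8 with vehicle and 17.1 with the combined treatment. ICAM2, a ligand of αLβ2, was at 8.03 and 11.9, and F11R, the junctional protein JAM-A that αLβ2 also binds, at 2.79 and 5.58. The largest differences among the associated genes were in 3 tetraspanins, of a family of membrane proteins that cluster integrins. Of 12 membrane partner genes 11 were tested, and these 3 were higher past the fold, with 0 lower and a median of 0.63. Over all genes, 5.01% were higher and 1.51% lower. The list was chosen with earlier results of these data known, so nothing is read from its count. CD82 was at an FPKM of 1.14 with vehicle, 1.69 under histidine, 1.13 under 6-MP and 11.4 under both agents. CD37 was at 1.06, 1.47, 1.11 and 6.56, and CD9 at 3.20, 2.96, 3.10 and 12.3. Each of these genes was low in 3 libraries and high in the combined one. More abundant partners differed less. The tetraspanin CD53 was at 51.9 with vehicle and 80.9 with the combined treatment. CD63, also a tetraspanin, was at 37.7 and 33.7, and BSG, the immunoglobulin-family protein basigin, at 90.3 and 70.2.

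**Figure D4:**
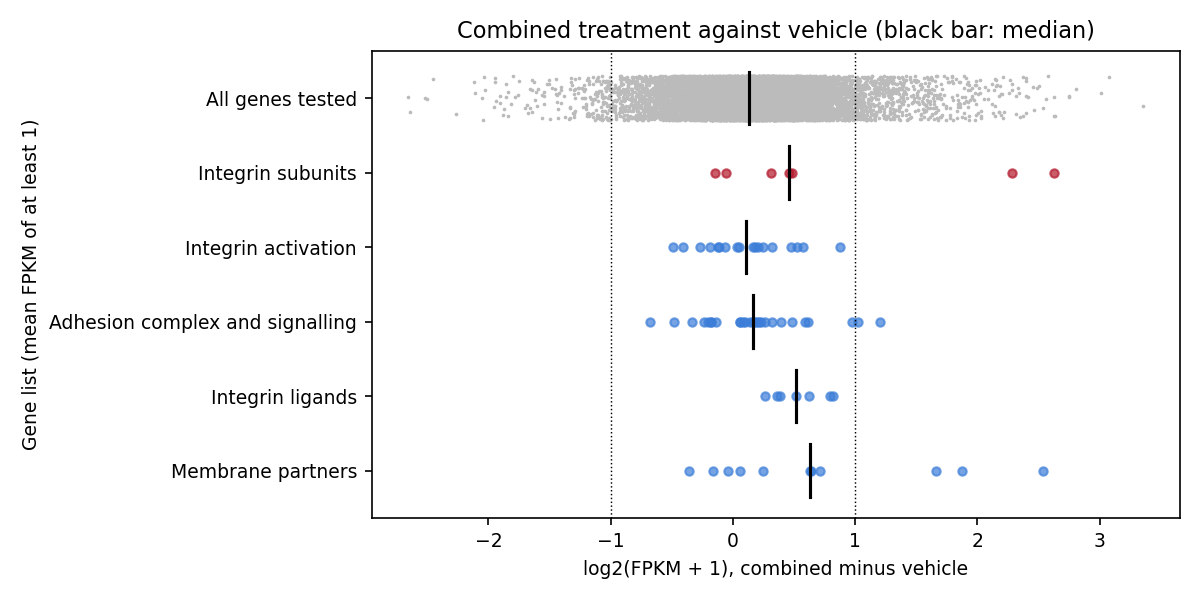
Differences on the log2(FPKM + 1) scale, combined minus vehicle (horizontal), for all 12750 genes tested, the 7 tested integrin subunits and the tested genes of 4 lists (vertical). Each point is 1 gene, black bars are medians and dotted lines mark a difference of 1 in either direction. Medians were 0.13 for all genes, 0.46 for the subunits, 0.52 for ligands and 0.63 for membrane partners.

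Genes near the members were checked because ITGAL, ITGAM and ITGAX all lie on chromosome 16. Within 100 kb of ITGB2, 6 other genes were tested, with log2(FPKM + 1) differences from vehicle of -0.59 to 0.30 and 0 past the fold. Closer noncoding genes lay below the filter and were chosen after their values were seen. LINC01547, 0.8 kb away, was at an FPKM of 0.311 with vehicle and 1.13 with the combined treatment. ENSG00000272825, 4.3 kb away, was at 0.107 and 0.595. ENSG00000273027, which overlaps ITGB2 on its own strand, was at 0.152 and 0.169. PTTG1IP, 12.1 kb away, was at an FPKM of 48.2 with vehicle and 59.7 with the combined treatment. Near ITGAM, PYCARD, an inflammasome adaptor 56.5 kb away, had a log2(FPKM + 1) difference of 0.71, with an FPKM of 5.68 with vehicle and 9.95 with the combined treatment. The antisense noncoding gene ITGB2-AS1, which overlaps ITGB2 on the opposite strand at 44921051 to 44929678, was below the filter and was chosen after its values were seen. It had 1, 0 and 1 read with vehicle, histidine and 6-MP and 100 reads with the combined treatment, an FPKM of 3.18. Its read ratio to vehicle was 111, with an interval of 19.5 to 4427. The libraries were made with a stranded kit, but the strand setting of the counting is not given in the sources used here, so reads of ITGB2 and of ITGB2-AS1 cannot be told apart where they overlap. HASPIN, which lies within ITGAE on the other strand, was at an FPKM of 15.5 with vehicle and 21.5 with the combined treatment. ZNF740 overlaps ITGB7 on the other strand at 10.2 and 12.7, so the same limit applies to ITGAE and ITGB7. It also applies to ITGA4, ITGA5, ITGA6 and ITGB1, which genes of low level overlap on the other strand. ENSG00000225205, over ITGA6, was at 0.228 and 0.602, and CERKL, over ITGA4, at 0.709 and 0.630.

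**Figure D5:**
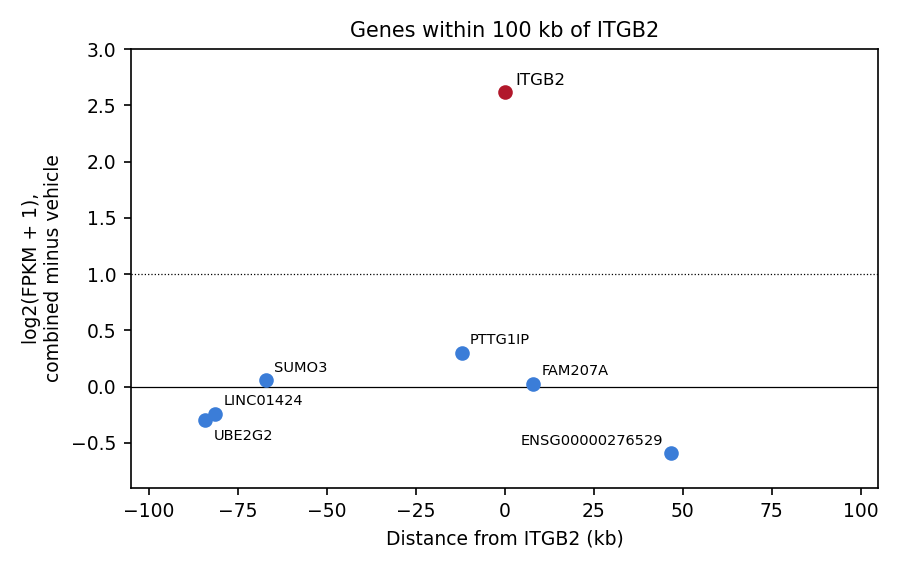
Differences on the log2(FPKM + 1) scale, combined minus vehicle (vertical), of ITGB2 (red) and of the 6 tested genes within 100 kb (blue), by distance from ITGB2 in kb (horizontal, negative toward lower coordinates). ITGB2 lies at 2.62, and its tested neighbors lie between -0.59 and 0.30. Neighbors below the filter are not drawn.

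Markers of other blood cells were read beside these values, since αM is also a marker of myeloid cells. Of 15 B-lineage markers 14 were in the table, all 14 at an FPKM of at least 1 in each library, and their summed FPKM was 2052 to 2174 over the 4 libraries with 0 past the fold. Of 13 myeloid markers 9 were in the table, with a summed FPKM of 27.5 to 31.5 in the 3 other libraries and 44.9 with the combined treatment. Nearly all of this was MPO, the peroxidase of granule-forming cells, at 27.7 with vehicle and 41.0 with the combined treatment. Among the other myeloid markers, CSF1R, a macrophage growth factor receptor, had 46, 50, 34 and 83 reads and CD33 had 39, 17, 31 and 77, in the order vehicle, histidine, 6-MP and combined, so both were highest with the combined treatment. FCGR1A had 7, 3, 5 and 4. In the same order, CD14 had 4, 1, 1 and 1 reads, FCN1 had 0, 1, 0 and 0, and CD68 had 1, 0, 1 and 0. CSF3R, the granulocyte growth factor receptor, had 0 reads in 3 libraries and 4 with the combined treatment, and LYZ had 8, 1, 3 and 31. The summed FPKM of the 4 T and NK cell markers in the table was 1.28 to 2.83 and 4.01 with the combined treatment, mostly from NKG7. The erythroid and megakaryocyte markers summed to at most 0.281 and the stromal and endothelial markers to at most 2.14. The part of any such marker in the levels of ITGB2 or ITGAM was not tested.

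By Euclidean distance over the 3 log2(FPKM + 1) differences from vehicle, the protein-coding genes most like ITGB2 among 9990 candidates were CCR7, CD82 and PLEK, at distances of 0.17, 0.17 and 0.27. CCR7, the chemokine receptor that guides lymphocytes to lymph nodes, was at an FPKM of 1.67 with vehicle, 2.24 under histidine, 1.51 under 6-MP and 17.0 under both agents. PLEK, the protein kinase C substrate pleckstrin, was at 1.57, 1.97, 1.505 and 12.1. The likeness rests on 4 libraries that all the genes share.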

How the data were processed

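RNA-seq of Reh-6-MPR cells comprised 4 libraries, 1 per treatment as labelled. The authors deposited FPKM values per gene. The submitters' processing notes name Trimmomatic, HISAT2, HTSeq and Cufflinks and the build hg38/GRCh38, and neither versions nor the strand setting of the counting are given in the sources used here. Reads were recovered from the steps of the FPKM values, with the shortest gene length that gave whole reads. They came out whole in all libraries for 29831 of 29833 genes, 99.93% to 99.95% of the library totals. GENCODE 29 lengths were used to find the library totals. A multiple of the shortest length was taken only where it came close to the annotated length. Differences were computed on log2(FPKM + 1) where the mean FPKM over the 4 libraries reached 1. Intervals on reads were exact Poisson for levels and exact Clopper-Pearson for ratios, at 95%. The authors' method, DESeq2, needs replicates and was not repeated. Read recovery, the call past the fold for the combined treatment against vehicle and the coverage of the ratio interval were tested on simulated data. The other calculations over many genes were not. The members, the 5 pathway lists and the 5 marker lists were chosen with earlier results of these data known. Genes named are the members, list genes past the fold and the 3 most abundant of each list, and the 3 genes nearest in pattern to the member with the largest difference, and any other is given as a neighbor, a marker or chosen afterwards. Alternatives were a pseudocount of 0.1, no filter, a minimum of 5 on that mean, median-ratio scaling, equal FPKM totals, a threshold of 1.5, protein-coding genes only and the ratio of recovered reads. A neighboring gene of ITGAM is not reported here. Calculations used scipy 1.17.1, pandas 2.3.3 and numpy 2.4.6 under Python 3.11.15, and plots matplotlib 3.10.9.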

Additional observations from a re-analysis of the deposited data

Results flagged for a closer look

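ITGB1 stood out because histidine went with opposite directions in the absence and presence of 6-MP. On the log2(FPKM + 1) scale, histidine alone was at -0.15 against vehicle, and histidine added to 6-MP was at 0.48 against 6-MP alone. Both differences were beyond counting error, each rests on 1 library per treatment, and the difference between them was not tested.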

How the results depend on the processing

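No paired analysis was possible because the 4 treatments have a single library apiece, so neither pairs nor replicates to leave out exist. When the mean FPKM had to reach 5, the count of members past the fold for the combined treatment was 1 against vehicle, 1 against histidine, 1 against 6-MP and 1 for departure from additivity, since ITGB2 was no longer tested, and the count was 0 for the adhesion complex list and 1 for membrane partners. With a pseudocount of 0.1 the activation list had 1 gene past the fold and the ligand list 1. The adhesion complex list had 1 with median-ratio scaling and 0 at a threshold of 1.5. Beyond fewer genes being tested, the cause was not tested. Median-ratio scaling raised the divisor of the combined library by 0.16 on the log2 scale relative to vehicle and brought the median of all genes from 0.13 to near 0. Of 60 differences of members, 2 small ones changed sign with that scaling and 1 with equal FPKM totals. None of these was in a comparison of the combined treatment, and 0 changed sign with a pseudocount of 0.1. Median-ratio scaling also shifted combined differences from vehicle by more than the half-width of the counting interval. They went from 0.48 to 0.34 for ITGB1 and from -0.15 to -0.30 for ITGA4. For ITGA5 the shift, from -0.05 to -0.19, was smaller than that half-width. Whether the ITGA5 difference itself was beyond counting error with this scaling was not computed. GENCODE 29 lengths, added after seeing the data, moved the ITGB2 share of β subunit FPKM by over 1.5 times, to 22.3% with the combined treatment. Depth limits ITGAL, ITGAX and ITGB7, which rest on at most 47 reads in any library.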

Other observations

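Of the genes around the members, 2 were past the fold for the combined treatment against vehicle, both chosen after their values were seen. They were 1 of 4 tested genes near ITGA5, higher, and 1 of 16 near ITGAL, lower. Over all genes tested, 6.53% were past the fold in either direction, so nothing is read from this count. ZNF385A, a zinc finger gene 4.0 kb from ITGA5, was at an FPKM of 6.05 with vehicle, 5.37 under histidine, 5.68 under 6-MP and 16.1 under both agents, while ITGA5 itself was at 8.42 and 8.07 with vehicle and the combined treatment. The small nucleolar RNA SNORA80C, 52.9 kb from ITGAL, was at 2.59 with vehicle, 2.87 under histidine and 1.45 under 6-MP, and listed at 0 with the combined treatment. It spans only 30419625 to 30419759, so these FPKM values rest on few reads. No counting interval is given for SNORA80C, and no loss of expression is read from it. No other tested gene within 100 kb of a member, the members aside, was past the fold.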
